A study of Mus musculus with 2 samples.

Results

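The genes described here are 10 genes of the extracellular matrix, Sparc, Sparcl1, Fn1, Col4a1, Col4a2, Col4a3, Col1a1, Col3a1, Mgp and Mmp2, out of 31053 genes in the feature lists of 2 single-cell RNA libraries of mouse kidney cortex. They were picked by symbol, after earlier results of the same data were known, because levels of Sparc and of several matrix genes had been seen to differ between the libraries and between cell types. Those levels are therefore given as a description, and nothing below is a test of them. Each of the 10 symbols matched 1 feature in both libraries.

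One library came from a mouse kidney labelled PT-I_Ppo-1, in which proximal tubular epithelium expresses I-PpoI, an endonuclease that cuts DNA at a long recognition sequence and makes double-strand breaks. The other library came from a wild-type kidney, and both were taken at 16 weeks of age. They are called PT I-PpoI and wild type below. The labels give neither the strain, the sex, the promoter that drives I-PpoI nor the number of animals behind a library, and the enzyme's own transcript was not analysed here. With 1 library per group there is no replicate, so no test was run and no p-value is given. Every interval below is an exact 95% interval for counting error only, and cells of a library are not replicates of its condition.

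The matrix of the kidney has a sheet-like part, the basement membrane under epithelium and around vessels, whose backbone is type IV collagen, and a fibrous part between tubules, built of fibrillar collagens and fibronectin by fibroblasts and mural cells. Sparc and its relative Sparcl1 are secreted matricellular proteins, which bind collagens and alter how cells hold to the matrix without being part of its scaffold. Matrix Gla protein (Mgp) binds calcium and is known for keeping vessel walls free of mineral, and Mmp2 is a secreted protease that degrades collagen IV and denatured collagens. Fibrosis is a build-up of fibrillar collagen and fibronectin between the tubules.

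In genome build mm10 with GENCODE M21 annotation, Sparc (ENSMUSG00000018593) spans chromosome 11 from 55394500 to 55423183 on the minus strand, and Col1a1 (ENSMUSG00000001506) lies on the same chromosome from 94936224 to 94953042 on the plus strand. Sparcl1 (ENSMUSG00000029309) is on chromosome 5 from 104079111 to 104113733, minus strand. Fn1 (ENSMUSG00000026193; 71585520 to 71653200, minus strand), Col3a1 (ENSMUSG00000026043; 45311538 to 45349706, plus strand) and Col4a3 (ENSMUSG00000079465; 82586921 to 82722059, plus strand) are on chromosome 1. Mgp (ENSMUSG00000030218) is on chromosome 6 from 136872435 to 136875823, minus strand. Mmp2 (ENSMUSG00000031740; 92827291 to 92853420, plus strand), Col4a1 (ENSMUSG00000031502; 11198423 to 11312826, minus strand) and Col4a2 (ENSMUSG00000031503; 11312805 to 11449287, plus strand) are on chromosome 8. Col4a1 and Col4a2 are head to head, and their levels are compared below, so the stretch where their annotated 5' ends overlap is shown here. The sequence is from RefSeq's promoter table for GRCm38.p6 (chr8:11312801-11312830, plus strand), and capitals mark the 22 bases from the annotated start of Col4a2 at 11312805 to that of Col4a1 at 11312826.
Col4a1 and Col4a2 start sites: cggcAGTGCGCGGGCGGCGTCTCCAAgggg

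After cell calling, 5098 cells of PT I-PpoI and 11953 of wild type were kept, with medians of 11048 and 2687 UMIs (unique molecular identifiers, each standing for 1 captured RNA molecule). Clustering gave 35 clusters, named "X-like" from fixed marker lists that hold none of the 10 genes, and the 10 genes were also left out of the genes used to cluster. The proximal tubule-like (PT-like) cells were 166 and 4711, and 117 of the 166 were in cluster 7, while the wild-type cells were spread over clusters 7, 22, 29, 30, 31 and 33. PT-like and endothelial-like cells are therefore described by cluster. A total of 1473 wild-type and 10 PT I-PpoI cells stayed unnamed, and 22 kept barcodes occurred in both libraries. Of the unnamed cells, 1239 wild-type and 4 PT I-PpoI cells formed cluster 32, led by Gpx3, Pck1 and Lars2, which scored highest for PT markers. Cluster 32 was left unnamed because its leading genes held more markers of the fibroblast list, which includes Gpx3. Its cells enter no PT-like count, share or sum given here. Free RNA, estimated from markers of other cell types, made up 1.12% to 14.04% of the UMIs of the compared PT I-PpoI classes and 6.16% to 39.4% of the wild-type ones.

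Fibroblast-like cells held most UMIs of the fibrillar collagens, whereas Sparc and the collagen IV genes were spread over vessels, glomerulus and tubule. Of the Col1a1 UMIs in kept cells, fibroblast-like cells held 95.3% in PT I-PpoI against 91.7% in wild type, although these were only 33 and 20 cells. The corresponding shares of Col3a1 were 93.1% and 66.2%, with 4.70% and 23.7% in mural-like cells. Endothelial-like cells held 65.5% and 72.4% of Sparc and 65.9% and 57.9% of Mmp2. Sparcl1 was divided between endothelial-like cells, with 49.4% and 45.2%, and mural-like cells, with 44.6% and 48.5%. Mgp was held by fibroblast-like cells, with 53.2% and 57.1%, and by endothelial-like cells, with 32.3% and 28.4%. Fn1 was in endothelial-like cells with 55.1% and 34.8%, in immune cells with 22.1% and 34.3%, and in fibroblast-like cells with 14.2% and 5.24%. Most Col4a3 UMIs were in tubule and urothelial-like cells. PT-like cells held 6.43% of them in PT I-PpoI against 74.9% in wild type, and other tubule and urothelial-like cells held 79.5% and 17.1%. Podocyte-like cells, where its level was highest, held 8.88% and 1.15%. These shares depend on how many cells of each class a library holds, and the 2 libraries differ widely in that.

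**Figure D1:**
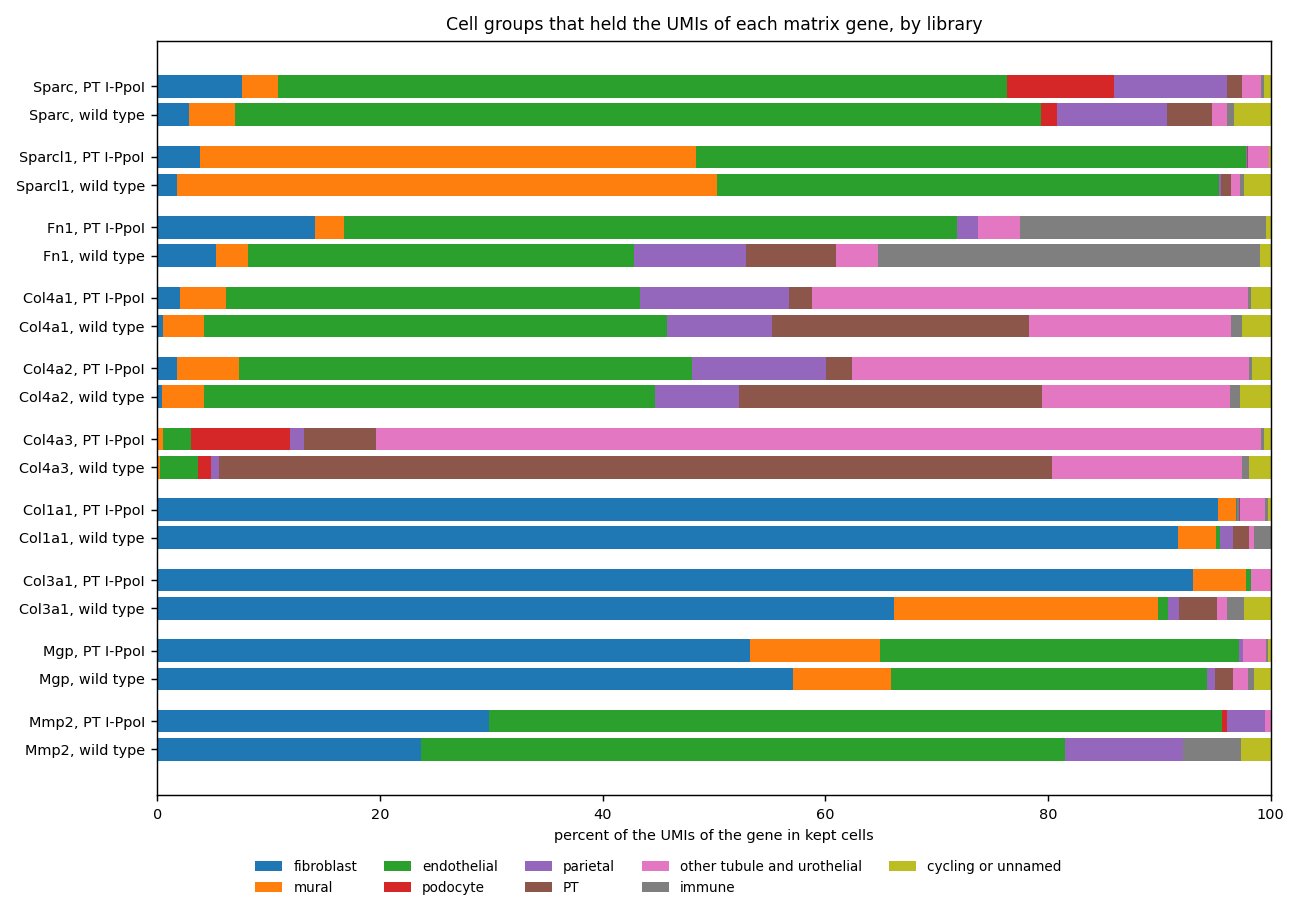
Share of each gene's UMIs in kept cells (percent, x axis) held by each cell group, with 1 bar per gene and library. Col1a1 was held by fibroblast-like cells in both libraries (95.3% and 91.7%), and Col4a3 by PT-like cells in wild type (74.9%) and by other tubule and urothelial-like cells in PT I-PpoI (79.5%).

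Ratios below are log2 ratios of UMIs per 1000000 UMIs of a class (CPM), PT I-PpoI over wild type, in 22 classes or clusters with 20 or more cells in each library. A pair of gene and class was measured if it had 10 or more UMIs over both libraries and reached 10 CPM in one of them, and it was counted if the ratio was 2-fold or more. Of 91 measured pairs of the 10 genes, 10 were counted as higher in PT I-PpoI, 14 as lower and 67 as neither. Over all genes and the same classes, 11.6% of 169654 measured pairs passed the same fold, 5.54% higher and 6.04% lower. Sparc was measured in 16 classes, with 3 higher and 4 lower. Col4a1 was measured in 19, with none higher and 4 lower, and Col4a2 and Col4a3 in 15 each, with none higher and 2 lower each. Fn1 (7 classes) and Mgp (7 classes) went both ways, and Sparcl1 was higher in 2 of 6. Col1a1, Col3a1 and Mmp2 reached the minimum in 2 classes each. The counts rest on these classes and not on all 22, since a gene without enough UMIs in a class was not measured there.

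**Figure D2:**
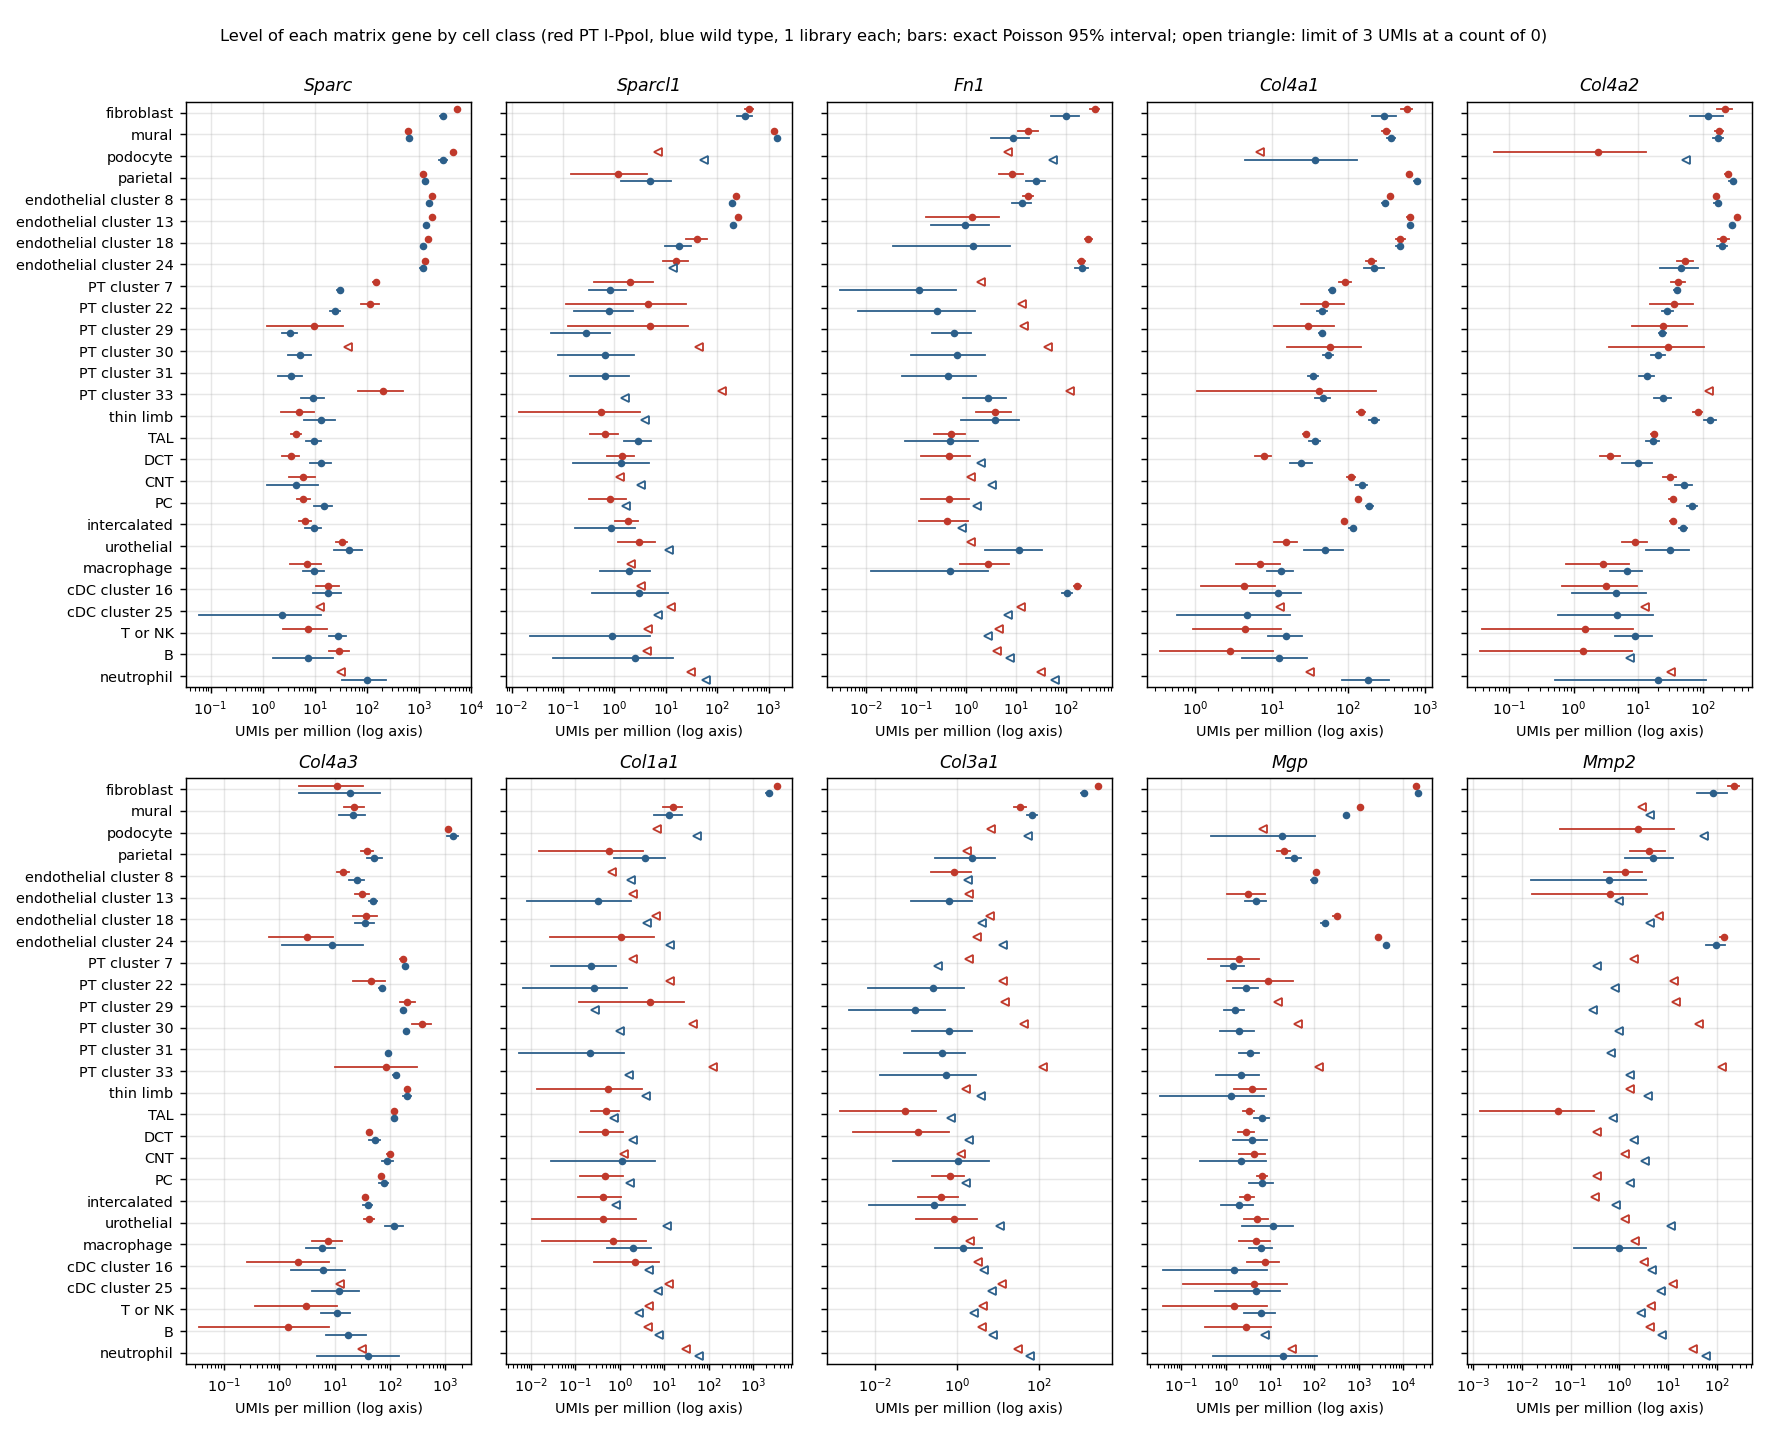
Level of each of the 10 genes (CPM of the class, log axis) in each cell class or cluster, red for PT I-PpoI and blue for wild type, with exact Poisson 95% intervals as bars and open triangles at the limit of 3 UMIs where the count was 0. In PT I-PpoI, Sparc ran from 3.49 CPM in DCT-like cells to 5458 CPM in fibroblast-like cells, and Col1a1 reached 3542 CPM in fibroblast-like and 16.1 CPM in mural-like cells.

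Sparc, the matricellular collagen binder, was highest in fibroblast-like cells and podocyte-like cells, then in endothelial-like, parietal-like and mural-like cells. In fibroblast-like cells it was at 5458 CPM (5184 to 5743) in PT I-PpoI against 2862 CPM (2551 to 3200) in wild type, a log2 ratio of 0.93 (0.75 to 1.11). Single fibroblast-like cells had a median of 3731 CPM in PT I-PpoI against 1681 CPM in wild type, and their quartiles overlapped, from 2489 to 7558 CPM and from 725 to 4071 CPM. In podocyte-like cells Sparc was at 4436 CPM (4238 to 4640) and 2916 CPM (2482 to 3405), but wild type had only 18 such cells, so no ratio was taken. The order in PT I-PpoI was fibroblast-like, podocyte-like, endothelial-like clusters 13 (1817 CPM) and 8 (1789 CPM), whose intervals overlapped, then cluster 18 (1495 CPM), cluster 24 (1322 CPM), parietal-like (1175 CPM) and mural-like cells (608 CPM). In wild type the fibroblast-like and podocyte-like intervals overlapped, and the parietal-like level (1312 CPM) lay inside the endothelial range of 1198 to 1550 CPM.

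In the 4 endothelial-like clusters the Sparc ratio was between 0.13 and 0.38, and no cluster passed 2-fold. The largest was in cluster 13, led by Btnl9, Esm1 and Kdr, with 0.38 (0.32 to 0.45), beside a median of 0.21 over all genes measured there. None of the 5 genes measured in cluster 13 passed 2-fold, against 6.04% of all genes, and none of 7 in cluster 8, against 4.54%. Parietal-like cells, the lining of Bowman's capsule, gave a Sparc ratio of -0.16 (-0.27 to -0.05), and mural-like cells gave -0.10 (-0.27 to 0.08). The mural-like cells were named from markers of smooth muscle and pericytes of vessels and from the renin gene Ren1. They were led by Ren1, Akr1b7 and Myh11, so renin cells are among them and were not separated.

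Proximal tubule-like cells had far less Sparc than these, and more of it in PT I-PpoI. In PT-like cluster 7, led by Slc5a12 and Slc34a3, Sparc was at 150.9 CPM (132 to 172; 230 UMIs) in PT I-PpoI against 30.6 CPM (27.0 to 34.5; 266 UMIs) in wild type. The log2 ratio was 2.30 (2.04 to 2.56). It was 1 of 4 genes measured in cluster 7 and the only one past 2-fold, as were 4.53% of all genes, whose median ratio was 0.23. In PT-like cluster 22, Sparc was at 115.9 CPM (75.7 to 170; 26 UMIs) and 24.6 CPM (19.8 to 30.1; 92 UMIs), a ratio of 2.26 (1.55 to 2.88), in a cluster where 21.6% of all genes passed 2-fold. The wild-type cells of PT-like clusters 29, 30, 31 and 33 had 3.33, 5.31, 3.50 and 9.28 CPM. PT I-PpoI had 20 cells in those clusters and 7 Sparc UMIs in them, 5 of them in 1 cell. Over all PT-like cells the levels were 129 and 13.7 CPM, a ratio of 3.24 (3.01 to 3.46) that also holds the difference in clusters, and 10.2% of all genes passed 2-fold in that sum.

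Few cells carried the Sparc UMIs of PT-like cluster 7. A UMI of Sparc was found in 40 of 117 cells of PT I-PpoI and in 102 of 850 of wild type, and the median cell had none in either library. The cell with the most Sparc held 80 of the 230 UMIs in PT I-PpoI against 46 of the 266 in wild type, so the counting intervals above are too narrow. Without the 80-UMI cell the ratio was 1.75, and without the 46-UMI cell it was 2.57. In cluster 22, 11 of the 26 PT I-PpoI UMIs were in 1 cell, and the ratio without it was 1.60. Thinned to 1000 UMIs per cell, the share of cluster 7 cells with a Sparc UMI was 5.98% (2.44 to 11.9) in PT I-PpoI against 1.42% (0.734 to 2.46) in wild type, where 117 and 847 cells were deep enough. T or NK-like cells, which should lack Sparc, gave 1.48% (0.180 to 5.25) and 1.44% (0.530 to 3.11) at the same depth. At this depth the wild-type share in cluster 7 was no higher than that of T or NK-like cells, and the PT I-PpoI share was higher with overlapping intervals. Thinned to 2000 UMIs, the cluster 7 shares were 14.04% (8.24 to 21.8) and 4.67% (3.34 to 6.32), beside 1.54% (0.187 to 5.45) and 2.90% (1.34 to 5.44) in T or NK-like cells. Before thinning the shares in cluster 7 were 34.2% and 12.0%, at medians of 12256 and 9194 UMIs, and those in T or NK-like cells 3.65% and 3.08%, at medians of 4197 and 2371 UMIs.

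Free RNA held more Sparc in PT I-PpoI, with 117.5 CPM against 27.8 CPM in wild type, and it made up an estimated 3.99% and 29.6% of the UMIs in PT-like cluster 7. With that share subtracted, Sparc stood at 152.3 and 31.8 CPM, and the log2 ratio was 2.26. The size of the free RNA difference depended on the profile. Read from barcodes of 100 or fewer UMIs, free RNA held 129.5 and 86.4 CPM of Sparc. Its estimated shares in cluster 7 were then 4.51% and 19.0%, and the ratio with it subtracted was 3.12. Markers of other cell types that are high in Sparc were also read in cluster 7. Of 13 endothelial markers, 10 were read in PT I-PpoI against all 13 in wild type, summing to 27.6 and 29.1 CPM, with Kdr, Cd34 and Erg at 0 in PT I-PpoI. Of 12 fibroblast markers, 3 and 6 were read, summing to 2.62 and 1.84 CPM, with Pdgfra, Dpt and Lum at 0 in both. Parietal markers (10 genes) summed to 129 and 76.8 CPM, mural markers (14 genes) to 61.7 and 33.4 CPM, and podocyte markers (12 genes) to 72.8 and 52.4 CPM, with Wt1 at 0 for PT I-PpoI. These 3 sums were all higher in PT I-PpoI. In PT I-PpoI the podocyte markers summed to 108 CPM in cells with a Sparc UMI and 46.8 CPM in those without. In wild type these sums were 53.7 and 52.2 CPM. The parietal markers summed to 130 and 128 CPM in PT I-PpoI and to 113 and 70.7 CPM in wild type. The part of any of these markers' cell types in the ratio was not tested. With every cell left out that had 2 or more different endothelial, mural, fibroblast or immune markers, the ratio in cluster 7 was 1.89. Podocyte and parietal markers were not screened in that setting.

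**Figure D3:**
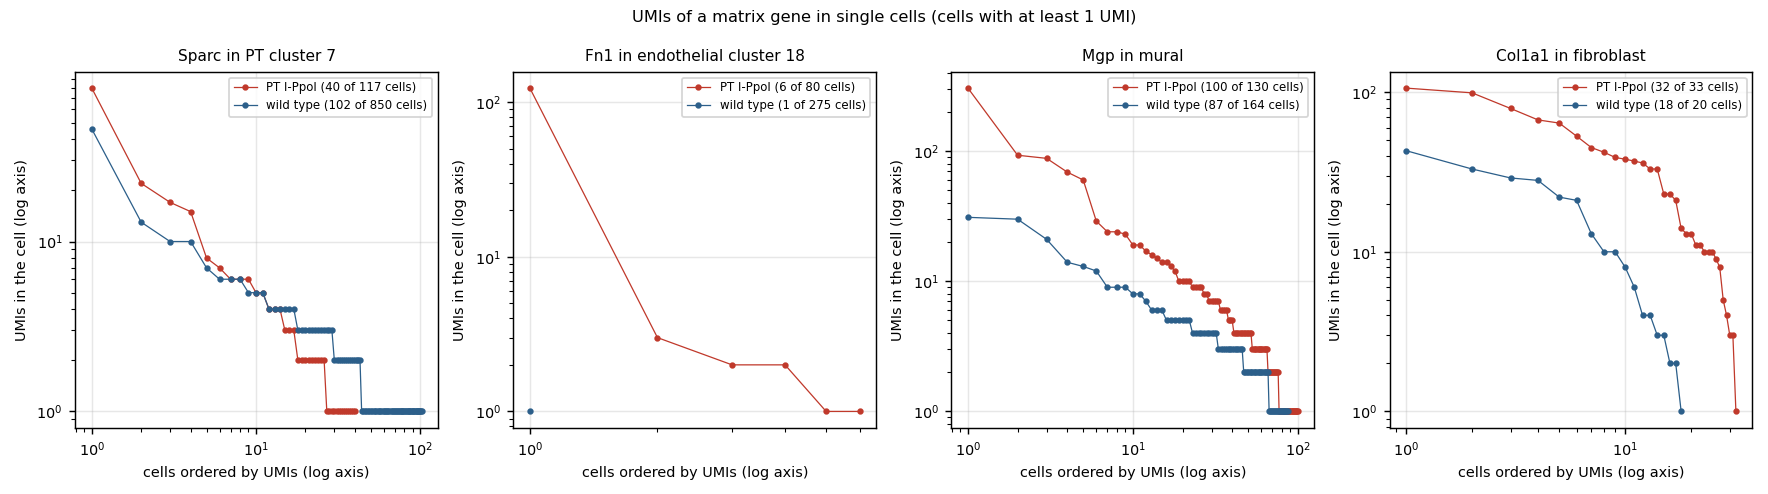
UMIs of Sparc in PT-like cluster 7, Fn1 in endothelial-like cluster 18, Mgp in mural-like and Col1a1 in fibroblast-like cells, with each point 1 cell with at least 1 UMI, ordered by UMIs (x axis) and plotted by its UMIs (y axis), both on log axes, red for PT I-PpoI and blue for wild type. The first cell of PT I-PpoI held 80 of 230 Sparc UMIs and 123 of 132 Fn1 UMIs, while Col1a1 was spread over 32 of 33 cells.

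In distal tubule and in lymphoid cells Sparc was low, and mostly lower in PT I-PpoI. In DCT-like cells, the distal convoluted tubule, it was at 3.49 and 13.2 CPM, a ratio of -1.93 (-2.78 to -1.02), but the mean over cells gave -0.08, and with doublets kept the ratio was 0.13. In PC-like cells, the principal cells of the collecting duct, it was at 6.08 and 14.97 CPM (-1.31, -1.99 to -0.57), and in thin limb-like cells at 5.03 and 13.04 CPM (-1.37, -2.85 to 0.08). T or NK-like cells gave 7.52 and 28.0 CPM from 5 and 31 UMIs (-1.78, -3.62 to -0.52), beside 3 and 17 UMIs of Col4a1 (-1.59, -4.18 to 0.02) and 2 and 12 of Col4a3 (-1.59, -5.05 to 0.32). The share of genes past 2-fold was 4.41% in DCT-like, 3.52% in PC-like, 7.71% in thin limb-like and 14.2% in T or NK-like cells, while 2 of 3, 2 of 4, 1 of 4 and 3 of 3 of the matrix genes measured there passed it. In B-like cells, where 53.5% of all genes passed 2-fold and their median was -0.997, Sparc was at 29.8 and 7.51 CPM from 21 and 3 UMIs (1.80, 0.25 to 4.38). Without 1 PT I-PpoI cell the B-like ratio was -0.36.

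Sparcl1, the closest relative of Sparc, was a gene of vessels. Mural-like cells were highest, with 1255 CPM (1188 to 1325) and 1483 CPM (1394 to 1576), a ratio of -0.24 (-0.36 to -0.12). Fibroblast-like cells followed with 416 and 344 CPM (0.26, -0.27 to 0.85). Endothelial-like clusters 13 and 8 had 255 and 230 CPM in PT I-PpoI against 203 and 198 CPM in wild type, and the intervals of the 2 clusters overlapped within each library. In these 4 classes no ratio reached 2-fold. The 2 counted ratios rest on few UMIs. In endothelial-like cluster 18, led by Sema3d and Gpr182, 19 and 13 UMIs gave 1.19 (0.11 to 2.35), and without 1 PT I-PpoI cell the ratio was -0.84. In endothelial-like cluster 24, led by Stmn2, Gkn3 and Fbln2, 15 UMIs gave 16.1 CPM in PT I-PpoI, while wild type had 0, which allows up to 13.7 CPM. Podocyte-like cells, high in Sparc, had no Sparcl1 UMI in either library, which allows up to 7.05 and 54.7 CPM.

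Fn1 encodes fibronectin, the glycoprotein that cells assemble into fibrils ahead of collagen. In fibroblast-like cells of PT I-PpoI it was at 386 CPM (316 to 467; 105 UMIs), against 102 CPM (51.0 to 183; 11 UMIs) in wild type. The ratio was 1.86 (1.02 to 2.96), and 20 of 33 and 7 of 20 cells had a UMI, or 8 of 33 and 2 of 20 when each cell was thinned to 1000 UMIs. In endothelial-like cluster 24, Fn1 was at 209 CPM (181 to 240) and 215 CPM (158 to 286), a ratio of -0.05 (-0.51 to 0.45), and 43 of 57 and 14 of 31 cells had a UMI. The cells of cluster 24 had medians of 13786 and 4026 UMIs, and thinned to 1000 UMIs the shares with Fn1 were 15.8% (7.48 to 27.9) and 16.1% (5.45 to 33.7), and at 2000 UMIs 37.5% (24.9 to 51.5) and 25.8% (11.9 to 44.6). In endothelial-like cluster 18, 132 UMIs in 6 of 80 cells of PT I-PpoI and 1 UMI in 275 cells of wild type gave 287 and 1.38 CPM, a ratio of 7.12 (5.20 to 13.02). A single PT I-PpoI cell held 123 of the 132 UMIs, and without it the ratio was 3.38. Fibroblast markers (3 of 12 read in each library) summed to 180.4 CPM in all PT I-PpoI cells of cluster 18 against 77.1 CPM in wild type. They summed to 555 CPM in the 6 PT I-PpoI cells with Fn1 and 131 CPM in the 74 without, where endothelial markers summed to 8699 and 17331 CPM. Their part in the ratio was not tested. In cluster 18, 2 of 7 matrix genes passed 2-fold, as did 13.5% of all genes, and in cluster 24, 1 of 7, as did 14.0%.

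Over all endothelial-like cells Fn1 was at 54.7 CPM in PT I-PpoI against 12.9 CPM in wild type, a ratio of 2.07 (1.72 to 2.46), where 6.35% of all genes passed 2-fold. This sum mixes clusters: cluster 24, which is high in Fn1, made up 57 of 841 and 31 of 2072 endothelial-like cells. A myeloid population held Fn1 too. In dendritic-like (cDC-like) cluster 16 it was at 172 and 108 CPM (0.67, 0.26 to 1.10), and with finer clustering these UMIs all fell into a monocyte-like cluster led by Chil3 and Ear2. That cluster had 30 and 102 cells and 160 and 71 Fn1 UMIs, at 702 and 380 CPM, and 11 cells of each library held them. In cluster 16, 1 of 3 measured matrix genes passed 2-fold, Col4a1 with 4 and 8 UMIs (-1.42, -3.68 to 0.40), as did 13.3% of all genes. Parietal-like cells had 14 and 21 UMIs, at 8.24 and 25.5 CPM (-1.61, -2.72 to -0.58), 1 of 6 genes past 2-fold in a class where 6.90% of all genes were. The 166 PT I-PpoI cells of the PT-like clusters had no Fn1 UMI, which allows up to 1.47 CPM, and 17 were found in wild type, at 0.525 CPM. T or NK-like cells had none in either library.

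Col4a1 and Col4a2 encode the 2 chains of the common collagen IV molecule, found in nearly all basement membranes. Col4a1 was highest in parietal-like cells, with 627 CPM (590 to 666) and 786 CPM (727 to 849), and in endothelial-like cluster 13, with 634 CPM (595 to 676) and 649 CPM (621 to 678). The intervals of these 2 classes overlapped in PT I-PpoI but not in wild type. Fibroblast-like cells had 585 CPM (497 to 683) and 297 CPM (203 to 420), a ratio of 0.96 (0.42 to 1.57), and 0.57 without 1 PT I-PpoI cell. In PT I-PpoI their interval overlapped those of the 2 highest classes. Endothelial-like cluster 18 had 478 and 472 CPM, cluster 8 had 348 and 299 CPM, mural-like cells had 313 and 367 CPM and cluster 24 had 201 and 219 CPM. Col4a2 was at 338 and 280 CPM in endothelial-like cluster 13 and 241 and 291 CPM in parietal-like cells.

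In tubule cells Col4a1 was mostly a little lower in PT I-PpoI. Thin limb-like cells had 146 and 220 CPM (-0.59, -0.88 to -0.30), PC-like cells 133 and 188 CPM (-0.50, -0.68 to -0.32), CNT-like cells (connecting tubule) 109 and 149 CPM (-0.46, -0.76 to -0.14), and intercalated-like cells 88.7 and 114 CPM (-0.37, -0.54 to -0.19). None of these reached 2-fold. DCT-like cells had 7.80 and 24.4 CPM from 67 and 37 UMIs (-1.65, -2.24 to -1.02), and -0.92 with doublets kept. In macrophage-like cells Col4a1 was the only one of the 10 genes measured, with 7.05 and 13.2 CPM (-0.86, -2.11 to 0.19), where 8.31% of all genes passed 2-fold. PT-like cluster 7 went the other way, with 91.2 and 62.0 CPM (0.56, 0.28 to 0.83), against a median of 0.23 over all genes, and 0.34 without 1 PT I-PpoI cell. Col4a2 in PC-like cells was at 34.1 and 68.2 CPM (-1.004, -1.31 to -0.69). In urothelial-like cells 4 of 5 matrix genes passed 2-fold downward: Col4a1 with 15.3 and 49.8 CPM (-1.74, -2.65 to -0.66), Col4a2 with 8.92 and 30.6 CPM (-1.83, -3.01 to -0.39), Col4a3 with 42.1 and 119 CPM (-1.51, -2.09 to -0.86) and Mgp with 12 and 3 UMIs (-1.33, -3.06 to 1.29). Of all genes there 20.6% passed 2-fold with a median of -0.25, and wild type had 22 such cells against 95.

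The paired genes moved together across classes. Over 44 points, 22 classes in each of 2 libraries, log2(CPM + 1) of Col4a1 and Col4a2 gave a Pearson r of 0.96, a description, since points of a library share its depth and free RNA. The ratio of Col4a1 to Col4a2 UMIs also depends on how well each 3' end is captured, so it is read only across classes. It was 1.55 (1.35 to 1.78) in PT-like cluster 7 of wild type and 2.21 (1.63 to 3.02) in that of PT I-PpoI, 3.90 (3.43 to 4.44) and 2.76 (2.24 to 3.42) in PC-like cells of PT I-PpoI and wild type, and 3.76 (2.74 to 5.24) in endothelial-like cluster 24 of PT I-PpoI. Over all kept cells it was 2.34 (2.25 to 2.43) and 2.17 (2.08 to 2.26). The annotated 5' ends of both genes overlap by the 22 bases shown above, and a tag at the 3' end does not give their transcription rates or the number of chains made.

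**Figure D4:**
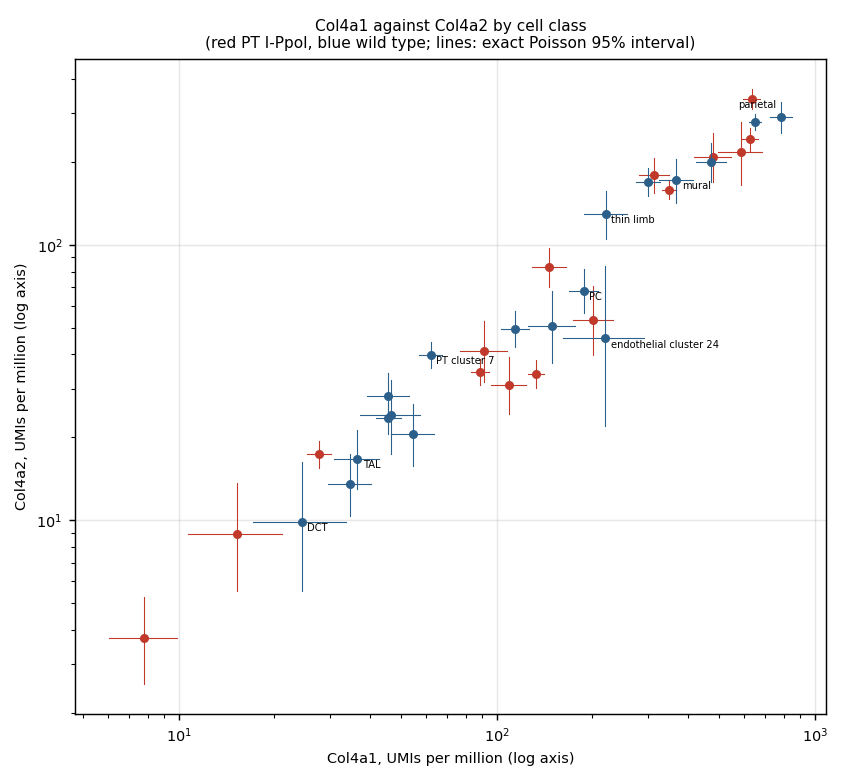
Col4a2 against Col4a1 (CPM of the class, log axes), with each point 1 class or cluster of 1 library that held 50 or more UMIs of the pair, red for PT I-PpoI and blue for wild type (names beside some wild-type points), and lines for exact Poisson 95% intervals. The points follow 1 band from DCT-like cells (7.80 CPM of Col4a1 in PT I-PpoI) to parietal-like cells (786 CPM in wild type).

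Col4a3 encodes a chain of the second collagen IV molecule, known from the glomerular basement membrane and parts of the tubule, and altered in Alport syndrome. Podocyte-like cells were highest, with 1100 CPM (1003 to 1204) and 1367 CPM (1075 to 1714), whose intervals overlapped, and all 45 cells of PT I-PpoI and 15 of 18 of wild type had a UMI. The same cells held 0 and 2 UMIs of Col4a1, and 1 and 0 of Col4a2. Tubule classes came next: thin limb-like cells with 204 and 201 CPM (0.02, -0.25 to 0.31), PT-like cluster 7 with 170 and 185 CPM (-0.12, -0.32 to 0.07), TAL-like cells (thick ascending limb) with 120 and 118 CPM (0.03, -0.11 to 0.17) and CNT-like cells with 102 and 89.7 CPM (0.17, -0.19 to 0.56). In these 4 classes the interval of the ratio held 0 and excluded a 2-fold change. None of 3 matrix genes passed 2-fold in TAL-like cells, against 1.93% of all genes, nor in CNT-like cells, against 5.93%, nor in intercalated-like cells, against 3.27%. Over all endothelial-like cells Col4a3 was at 17.95 and 39.5 CPM (-1.14, -1.46 to -0.82), below the free RNA level of 53.0 and 48.1 CPM, while clusters 8, 13 and 18 gave -0.82, -0.65 and 0.06. The level over the whole library, all barcodes included, was 67.4 and 85.9 CPM.

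Col1a1 and Col3a1 encode the main fibrillar collagens of scar and interstitium. Col1a1 in fibroblast-like cells was at 3542 CPM (3322 to 3773; 963 UMIs) in PT I-PpoI against 2249 CPM (1974 to 2551; 242 UMIs) in wild type, a ratio of 0.65 (0.45 to 0.86) that did not reach 2-fold. The median cell had 2872 and 1533 CPM, and the ranges overlapped, with quartiles of 1791 to 4542 and 645 to 4297 CPM. Col3a1 was at 2766 CPM (2572 to 2971; 752 UMIs) and 1273 CPM (1069 to 1505; 137 UMIs), a ratio of 1.12 (0.85 to 1.39), with medians of 1832 and 852 CPM per cell and overlapping quartiles. In fibroblast-like cells 3 of the 9 measured genes passed 2-fold, all upward (Fn1, Col3a1 and Mmp2), as did 24.6% of all genes either way. With free RNA subtracted, the Col3a1 ratio was 0.94, under 2-fold. In mural-like cells Col3a1 had 36.0 and 70.5 CPM from 38 and 49 UMIs (-0.97, -1.62 to -0.33), and -0.45 without 1 wild-type cell. Mural-like Col1a1 had 17 and 9 UMIs (0.28, -0.93 to 1.66).

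The fibroblast-like cells of the libraries differed in more than these genes. Free RNA made up an estimated 1.80% of their UMIs in PT I-PpoI against 13.3% in wild type, and 5 and 14 of 15 PT markers were read in them, summing to 25.7 and 9134 CPM. Their own 12 markers, none of them a gene described here and all read in both libraries, summed to 24969 and 14143 CPM. The cells made up 0.647% and 0.167% of kept cells. How far these differences enter the ratios was not tested beyond the subtraction of free RNA.

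Mgp was highest in fibroblast-like cells, with 19330 CPM (18811 to 19860) and 22107 CPM (21227 to 23013), a ratio of -0.19 (-0.26 to -0.12), or -0.43 without 1 PT I-PpoI cell and 0.18 without 1 wild-type cell. Endothelial-like cluster 24 followed with 2733 CPM (2628 to 2841) and 4041 CPM (3779 to 4316), a ratio of -0.56 (-0.68 to -0.45), and its median cell had 2711 and 2841 CPM. Mural-like cells went the other way, with 1093 CPM (1031 to 1158; 1153 UMIs) and 528 CPM (476 to 585; 367 UMIs), a ratio of 1.05 (0.88 to 1.22). It was 1 of 9 genes past 2-fold there, as were 10.1% of all genes. Of the 1153 UMIs, 305 were in 1 cell, without which the ratio was 0.64, and the median mural-like cell had 350 and 180 CPM with overlapping quartiles (58.5 to 998 and 0 to 724 CPM). The 14 mural markers, which include Ren1, summed to 60706 and 34800 CPM in these cells and the 15 PT markers to 201.0 and 2455 CPM. Their part in the Mgp ratio was not tested. Endothelial-like cluster 18 had 317 and 169 CPM (0.90, 0.55 to 1.26), and cluster 8 had 107 and 97.6 CPM (0.13, -0.13 to 0.40). Over all endothelial-like cells Mgp was at 427 and 209 CPM (1.03, 0.93 to 1.13), although cluster 24, which is highest for it, was lower in PT I-PpoI. That cluster was a larger part of the endothelial-like cells in PT I-PpoI, as given above for Fn1.

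Mmp2, the protease of the set, reached the measuring minimum in 2 classes. Endothelial-like cluster 24 had 137 CPM (114 to 163; 128 UMIs) and 96.0 CPM (59.4 to 147; 21 UMIs), a ratio of 0.49 (-0.16 to 1.25), and 40 of 57 and 11 of 31 cells had a UMI. At 1000 UMIs per cell those shares were 7.02% (1.95 to 17.004) and 12.9% (3.63 to 29.8), and at 2000 UMIs they were 26.8% (15.8 to 40.3) and 16.1% (5.45 to 33.7), so that the direction turned with the depth and the intervals overlapped at both. Fibroblast-like cells had 224 CPM (172 to 288; 61 UMIs) and 83.6 CPM (38.2 to 159; 9 UMIs), a ratio of 1.36 (0.41 to 2.62), with a UMI in 22 of 33 and 6 of 20 cells, or 6 of 33 and 2 of 20 when thinned to 1000 UMIs. Below the minimum, parietal-like cells had 7 and 4 UMIs and endothelial-like cluster 8 had 6 and 1. No Mmp2 UMI was found in PT-like cells, which allows up to 1.47 CPM in PT I-PpoI against 0.0927 CPM in wild type, nor in mural-like cells (2.84 and 4.32 CPM). Counted over all barcodes, Mmp2 was at 2.48 and 0.454 CPM, Fn1 at 8.60 and 2.38 CPM, Col1a1 at 11.4 and 2.90 CPM and Col3a1 at 9.17 and 2.25 CPM, and these totals also move with the number of fibroblast-like and endothelial-like cells captured.

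**Figure D5:**
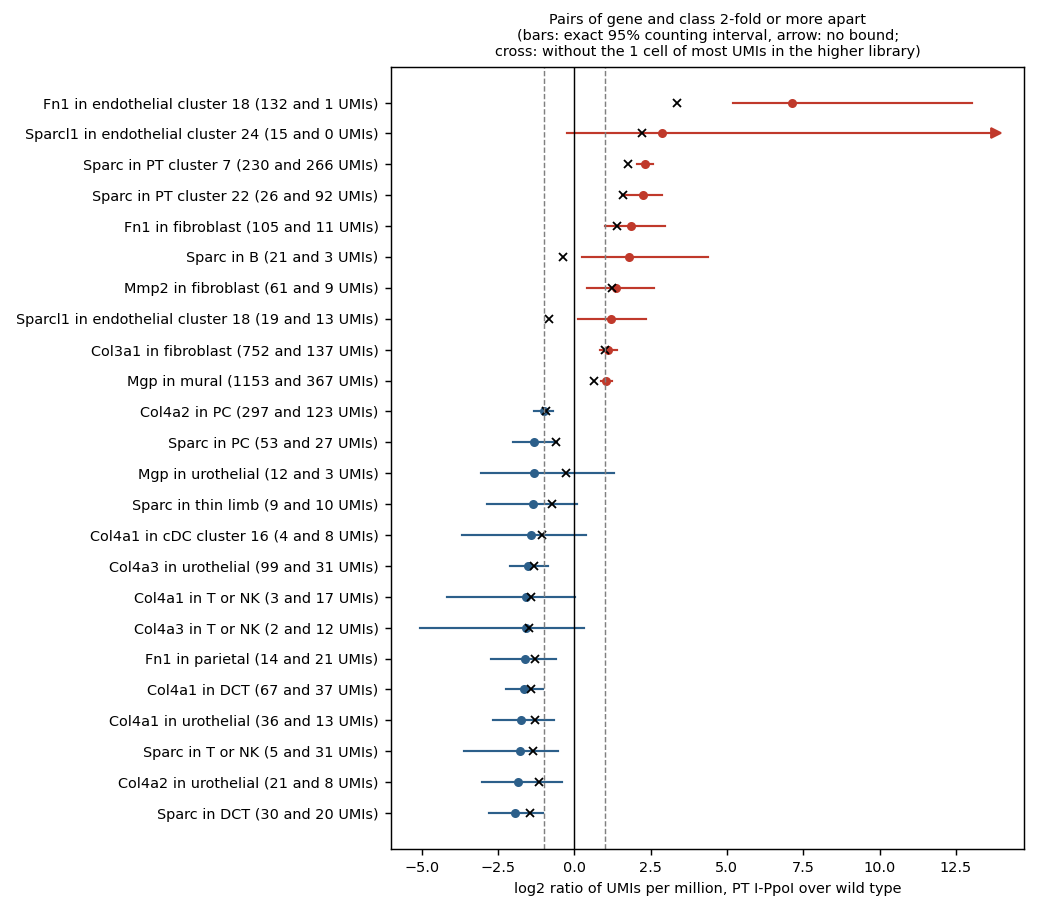
The 24 pairs of gene and class that passed 2-fold, with the log2 ratio of CPM, PT I-PpoI over wild type (x axis), exact 95% counting intervals as bars and a cross for the ratio without the cell of most UMIs in the higher library. Dashed lines mark 2-fold. Fn1 in endothelial-like cluster 18 fell from 7.12 to 3.38 without 1 cell, and Sparc in B-like cells fell from 1.80 to -0.36.

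The other matrix genes of fibroblast-like cells were read from lists that hold none of the 10 genes. Of 19 measured fibrillar and interstitial genes, 4 passed 2-fold upward and 1 downward, with a median ratio of 0.65, against 24.6% of all genes and an all-gene median of 0.13. Postn, a matricellular protein of remodelling tissue, was at 224 and 27.9 CPM (2.80, 1.39 to 5.33), Col12a1, a fibril-associated collagen, at 338 and 65.0 CPM (2.29), and Col6a3, a microfibril collagen, at 390 and 130 CPM (1.54). Of 16 collagen processing genes 4 were higher and none lower, with a median of 0.60, among them Loxl2, a collagen cross-linking oxidase, at 173 and 18.6 CPM (2.91, 1.28 to 6.30), and Pcolce, which enhances procollagen cleavage, at 1133 and 409 CPM (1.46). Of 13 basement membrane genes 2 were higher, with a median of 0.14, and the perlecan gene Hspg2 had 43 and 1 UMIs (3.52, 1.53 to 9.43). Proteases and inhibitors had 2 higher and 2 lower of 9, matrix receptors 1 higher of 8, and the SPARC family 1 higher of 2, Smoc2 at 691 and 279 CPM (1.29). Among 11 transforming growth factor beta genes 1 was higher and 2 lower, and Ctgf, a target of that pathway, was at 166 and 585 CPM (-1.82).

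In PT-like cluster 7, 2 of 13 measured basement membrane genes passed 2-fold upward and none downward, with a median of 0.07, beside 4.53% and 0.23 over all genes. These were Tinagl1, at 21.7 and 5.98 CPM (1.86), and Col18a1, the source of endostatin, at 87.9 and 38.9 CPM (1.18). Of 3 proteases and inhibitors 1 passed, Adamts1, a metalloprotease that cleaves proteoglycans, at 40.7 and 14.03 CPM (1.54). No gene of the SPARC family other than Sparc was measured there, and the 1 fibrillar gene measured was within 2-fold. In mural-like cells 1 of 16 basement membrane genes was higher, Lamb1 at 51.2 and 17.3 CPM (1.52), and none was lower. Of 16 fibrillar and interstitial genes measured there, 2 were higher and 1 lower, with a median of -0.30. Over all genes in mural-like cells, 10.1% passed 2-fold either way, with a median of 0.05. In endothelial-like cluster 18, 5 of 8 fibrillar and interstitial genes were higher, with a median of 1.19, including Thbs1, a thrombospondin, with 32 and 16 UMIs (1.64), and Eln, the elastin gene, with 59 and 44 UMIs (1.08). Over all genes in cluster 18, 8.87% were higher, with a median of 0.20. Fibroblast markers were also higher in its PT I-PpoI cells, as given above for Fn1, and their part in this count was not tested.

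The genes whose level followed a member most closely over the same 44 points were named as a description only. Sparc was followed by Pxdn (r = 0.92), Meis2 and Dpysl3, and Sparcl1 by Serpine2 (0.89), Spry4 and Dact1. Col4a1 was followed by Zbtb20 (0.91), Rai14 and Arhgap29, and Col4a2 by Rai14 (0.92), Zbtb20 and Adamts1. Col4a3 was followed by Col4a4 (0.89), which encodes its partner chain, Arhgap32 and Epb41l5. Col1a1 was followed by Adamts2 (0.97), Prrx1 and Pdgfrl, and Col3a1 by Col6a3 (0.98), Prrx1 and Adamts2. Mgp was followed by Fbn1 (0.92), Eln and Ecm2, Mmp2 by Pcolce2 (0.86), Tspan11 and Thbs3, and Fn1 by Tppp3 (0.79), Pir and Cxcl12. Among the 10 genes themselves r was 0.97 for Col1a1 with Col3a1 and 0.06 for Sparc with Col4a3.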

How the data were processed

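The deposited matrices hold raw UMI counts per gene and barcode, unfiltered, which the authors made with Cell Ranger 3.1 on mm10 and took on with Seurat 3, per the submitters' processing notes, while the file headers name Cell Ranger 4. Libraries used 10x 3' v3.1 chemistry on digested kidney cortex, per the labels' protocols. The matrices held 1737120 and 1979462 barcodes and 93257620 and 107977310 UMIs (PT I-PpoI, wild type).

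Cells were called from the counts with a knee step and a comparison with free RNA (barcodes ranked 45001 to 90000, false discovery rate 0.01), giving 6942 and 17795. Those with under 500 UMIs, under 200 genes or over 50% mitochondrial UMIs were removed, leaving 5198 and 12251, and then 100 and 298 doublets with a simulated-doublet score above 0.25. Kept cells were clustered with scanpy 1.11.5 (2000 variable genes without matrix genes, 30 components, Leiden resolution 1). Clusters were named from marker lists, and names rebuilt this way may differ from the study's own. UMIs were summed per class. Levels carry exact Poisson intervals, shares of cells Clopper-Pearson intervals and ratios exact conditional binomial intervals, all at 95% and for counting error only. A prior of 0.5 count entered each ratio but not its interval.

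Genes named were the 10 genes, up to 3 genes per list and class past 2-fold (at least 30 UMIs in the library with more), and the 3 genes of highest r per gene. Scripts were tested on simulated data. The genes and the lists were chosen with earlier results of these data known. RefSeq's promoter table matched 4 of the 10 genes. TMM factors came from edgeR 4.0.16. Alternatives covered cell filters, free RNA, scaling, averaging, clustering, doublets and thinning, and leaving out the cell with the most UMIs was chosen after seeing the data.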

Additional observations from a re-analysis of the deposited data

Results flagged for a closer look

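For 7 of the genes the ratio of PT I-PpoI over wild type was above 0 in one class and below 0 in another, with both counting intervals excluding 0. The difference between the classes was not tested, since each class has 1 library per group. The same count was not made over all genes, so these 7 have no background share beside them. The classes named are those with the highest and the lowest such ratio of each gene. On the log2 scale, Sparc was at 2.30 in PT-like cluster 7 and -1.93 in DCT-like cells. The DCT-like ratio was -0.08 as a mean over cells and 0.13 with doublets kept. Sparcl1 was at 1.19 in endothelial-like cluster 18 and -0.24 in mural-like cells, and Fn1 at 7.12 in endothelial-like cluster 18 and -1.61 in parietal-like cells. Without 1 PT I-PpoI cell, the cluster 18 ratios were -0.84 for Sparcl1 and 3.38 for Fn1. Col4a1 was at 0.96 in fibroblast-like and -1.74 in urothelial-like cells, and Col4a2 at 0.27 in endothelial-like cluster 13 and -1.83 in urothelial-like cells. The median over all genes was 0.21 in cluster 13 and -0.25 in urothelial-like cells. Col3a1 was at 1.12 in fibroblast-like and -0.97 in mural-like cells, and Mgp at 1.05 in mural-like cells and -0.56 in endothelial-like cluster 24.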

How the results depend on the processing

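No paired analysis was possible because each group has 1 library. Against 10 pairs counted as higher, the count was 6 (of 78 measured pairs) with a mitochondrial limit of 30%, 4 (of 22) with cells holding markers of another group left out, and 16 without the wild-type cell of most UMIs. Against 14 lower pairs, the count was 5 with cells holding markers of another group left out and 7 (of 83) with doublets kept. The other settings gave 7 to 13 higher and 10 to 19 lower pairs. These are counts, and the same pairs were not tracked through them. The setting on markers of another group screened only endothelial, mural, fibroblast, PT and immune markers. Sparcl1 in endothelial-like cluster 18 turned to -0.85 as a mean over cells and -0.84 without the PT I-PpoI cell of most UMIs, and in cluster 24 to -0.95 with matrix genes among the variable genes. With the free RNA profile of barcodes of 100 or fewer UMIs, Sparc turned to 0.83 in thin limb-like and 1.07 in PC-like cells. Sparc in DCT-like cells turned to 0.13 with doublets kept. With cells holding markers of another group left out, Sparc turned to 1.39 and Col4a1 to 0.74 in T or NK-like cells. Sparc in B-like cells turned to -0.36 without the PT I-PpoI cell of most UMIs. The cause was not tested. Sparc in PT-like cluster 7 stayed above 1.7 under every setting run, from 1.75 without the PT I-PpoI cell of most UMIs to 3.12 with that free RNA profile, which gave 4.94 in cluster 22. TMM scaling shifted PT-like cluster 7 by -0.26 and B-like cells by 0.99. Wild-type cells were shallower, and 20 fibroblast-like cells limit every ratio of the fibrillar collagens.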
